A study of Homo sapiens with 20 samples.

Results

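Of the 11963 genes with a probe set of their own in the array table, 9 genes of lymphocyte homing and tissue exit were examined: the chemokine receptors CCR7, CCR9 and CXCR4, the sphingosine 1-phosphate receptor S1PR1, the transcription factor KLF2, the integrin chains ITGA4, ITGB7 and ITGAL, and the selectin ligand SELPLG. They, and the gene lists set around them below, were chosen by name with earlier results of these data known. A probe set was taken where the platform's annotation gave it 1 of the 9 genes and no other. This gave 14 probe sets, with 3 for CXCR4, 3 for ITGA4, 2 for SELPLG and 1 for each other gene. All 14 of 14 lay above the level below which signals were left out of the main test.

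T cells reach a tissue in steps. Selectins catch the glycoprotein PSGL-1, which SELPLG encodes, so that the cell rolls along the vessel wall. Chemokines presented on the wall then act through G-protein-coupled receptors, and integrins switch to a state that holds the cell firmly. CCR7 binds CCL19 and CCL21 and leads cells into lymph nodes, CCR9 binds CCL25 of thymus and small intestine, and CXCR4 binds CXCL12, which keeps cells in bone marrow. S1PR1 senses sphingosine 1-phosphate in blood and lymph and draws cells out of thymus and lymph nodes, and in mouse T cells KLF2 binds its promoter. In mouse models of T-cell leukemia, Ccr7 and Cxcr4 are known for the entry of leukemic cells into the central nervous system and for their maintenance in bone marrow.

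The samples were 10 established human lines of T-cell acute lymphoblastic leukemia, or T-ALL. Per the series' description all of them carry activating NOTCH1 mutations, treated and untreated cells alike. The lines were KOPTK1, HPB-ALL, DND41, ALL-SIL, CUTLL1, PF382, MOLT3, RPMI8402, CCRF-CEM and P12-ICHIKAWA. Each line gave 1 array after 72 h with 100 nM CompE, an inhibitor of gamma-secretase, the protease that releases the active part of NOTCH1, and 1 array after 72 h with its vehicle DMSO. The question was how the RNA of cells under CompE differs from that of the same line under DMSO. Whether both arrays of 1 line stem from independent cultures is not in the labels. The 10 lines served as replicates. A p-value for CompE weighs the mean change within lines against the spread of these changes between lines.

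Values are MAS5 signals, a linear brightness scaled to the same trimmed mean on every array, and changes are CompE minus DMSO on the log2(signal + 16) scale, which understates the fold of dim genes. The median signal of an array lay between 54.7 and 74.8, and in 10 of 10 lines the DMSO array most like a CompE array was that of the same line. Of the defining T-cell markers 12 of 12 lay above the signal filter on the mean over all arrays, and 9 of 12 did so on every array. Their summed signal was 14404 to 34315 under CompE and 14382 to 30733 under DMSO. Of the markers of myeloid and erythroid cells 0 of 8 and 0 of 4 passed, of B cells 4 of 8, of epithelial cells 1 of 6, of fibroblasts 3 of 6 and of endothelial cells 2 of 6; the part of these markers in the results was not tested. The direct NOTCH1 target HES1 had 21.5, 213 and 981 (lowest, median and highest line) under CompE, against 117, 732 and 1557.3 under DMSO. It fell by 1.71 on the log2 scale (standard error, SE, 0.305, limma adjusted p 0.00795), with 0 of 10 lines higher. KOPTK1 stood apart in RNA integrity: its ratio of 3′ to 5′ ACTB probe signals was 9.76 under CompE and 3.32 under DMSO, a log2 change of 1.56, against changes of −0.049 to 0.542 in the other lines.

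Lines differed far more than treatments in these genes. The arrays read RNA pooled over a culture, so fewer cells with a transcript and less of it in each cell cannot be told apart. The cell line took a median of 93.2% of the sum of squares over the 9 genes and CompE 2.36%, against 80.3% and 2.32% over all 7547 genes tested. A limma F test of the line differences called 8 of 9 genes at an adjusted p of 0.05, beside a background of 76.7% of all genes tested, and missed ITGB7 (adjusted p 0.175). The means of the 9 changes under CompE were all above 0, beside 58.7% of all genes, with a median change of 0.31 beside 0.04 over all genes. Of the 9 genes 4 were higher in at least 8 lines, beside 19.8% of all genes, and 6 had an unadjusted limma p under 0.05, beside 25.4%. Because the genes were chosen with earlier results known, these shares describe them and carry no test.

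After adjustment over all 7547 genes the limma fit called 1 of the 9, SELPLG, beside a background of 7.26% of genes called (3.96% higher under CompE and 3.3% lower). Higher calls made up 54.6% of all 548 calls, and 25.1% when each array was centred on its median; every one of the 9 changes then still lay above the median of all genes, and ITGA4 lay below 0. In the fit of all 22215 probe sets without a signal filter, 0 of 14 probe sets were called, beside 1.71% of all probe sets (0.828% higher and 0.882% lower). In that limma fit 4 of 14 had an unadjusted p under 0.05, beside 18.6% of all probe sets, and 11 of 14 changes were above 0, beside 63.4% of all probe sets.

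**Figure D1:**
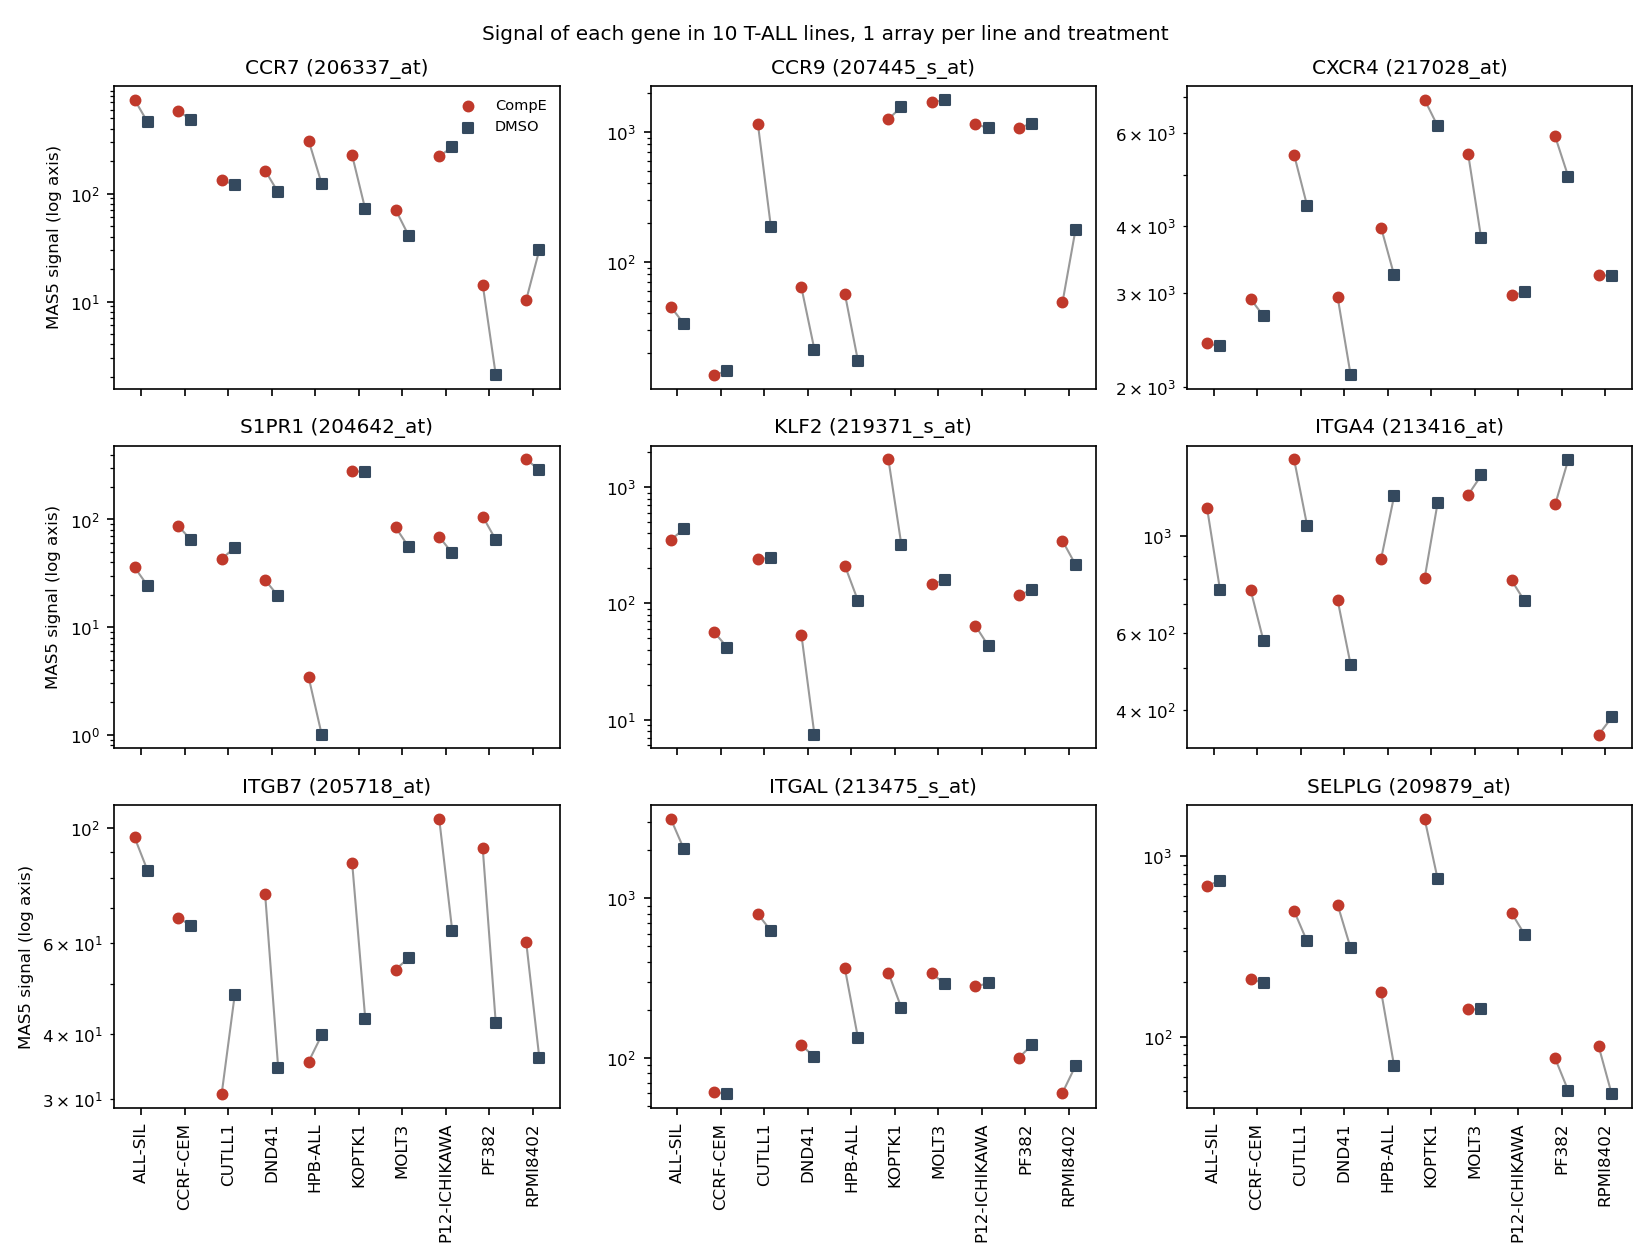
MAS5 signal (log axis) of the brightest probe set of each of the 9 genes in 10 T-ALL lines, with circles for the CompE array and squares for the DMSO array of a line, 1 array each, joined by a line. The distance between lines exceeds the distance between treatments for most genes, for example CCR9 at 1679.7 and 1759.2 in MOLT3 under CompE and DMSO, and at 13.4 and 14.5 in CCRF-CEM.

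CCR7, the lymph node receptor (gene 1236, chromosome 17, 40553769 to 40565472 in GRCh38.p14), had signals of 10.4, 192 and 739 (lowest, median and highest line) under CompE and of 2.08, 112 and 482 under DMSO. The change was 0.46 (SE 0.181, 95% interval 0.08 to 0.85) and did not pass adjustment (limma adjusted p 0.122), with 8 of 10 lines higher. Adding the ACTB ratio to the model gave 0.23 (adjusted p 0.512). KOPTK1 had 225 under CompE against 71.7 under DMSO, HPB-ALL 309 against 123, and ALL-SIL 739 against 458. The 2 lines with the opposite direction were RPMI8402, at 10.4 under CompE and 29.9 under DMSO, and P12-ICHIKAWA, at 221 and 270.5. The CompE and DMSO values overlapped over most of their range. With both arrays of a line averaged, ALL-SIL and CCRF-CEM stood highest and PF382 lowest, and 0 of 9 steps between neighbouring lines exceeded the least difference that the residual spread of the gene allows to be told apart at 95% (1.07 log2).

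CCR9, the thymus and gut receptor (gene 10803, chromosome 3, 45886064 to 45903174), divided the lines. It read 1679.7 under CompE and 1759.2 under DMSO in MOLT3, 1249.8 and 1551.9 in KOPTK1, 1148.7 and 1060.3 in P12-ICHIKAWA, and 1075.6 and 1152.2 in PF382. In ALL-SIL, CCRF-CEM, DND41 and HPB-ALL it did not pass 63.5 under CompE or 33.4 under DMSO. The remaining lines moved in opposite directions: CUTLL1 had 1151.2 under CompE against 184.6 under DMSO, a log2 change of 2.54, and RPMI8402 had 48.6 against 176.5, a change of −1.58. Between lines only the step between CUTLL1 and RPMI8402 exceeded the least difference of 1.74 log2. The mean change of 0.31 (SE 0.267, interval −0.26 to 0.87, limma adjusted p 0.503, 5 of 10 lines higher) was 0.06 without CUTLL1 and 0.52 without RPMI8402.

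The CCR7 and CCR9 levels are set side by side here because the receptors serve different sites. Over the 10 CompE arrays their log2 signals had Pearson's r of −0.366 and Spearman's rho of −0.418, and over the 10 DMSO arrays r of −0.555 and rho of −0.624. Without the 2 lines farthest from the median r was −0.748 under CompE and −0.329 under DMSO. These values describe 10 lines, whose arrays each carry both genes.

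CXCR4, the bone marrow receptor (gene 7852, chromosome 2, 136114349 to 136118149), was measured by 3 probe sets. The brightest, 217028_at, had 2412.7, 3607.2 and 6916.2 (lowest, median and highest line) under CompE and 2102.5, 3234.2 and 6170.5 under DMSO. It was higher under CompE in 9 of 10 lines, by 0.21 on average (SE 0.0673, interval 0.07 to 0.36), which did not pass adjustment (limma adjusted p 0.062). The largest changes were 0.53 in MOLT3, with 5470.2 under CompE against 3795.7 under DMSO, and 0.48 in DND41, with 2947 against 2102.5; P12-ICHIKAWA had the only change below 0, at −0.02. The CompE and DMSO values overlapped over most of their range, and the difference was one within lines. Of 24 alternatives 22 did not call it, with a change of 0.14 (adjusted p 0.2) for centred arrays and 0.13 (0.481) with the 10th percentile of an array's signal as a covariate. It was called without KOPTK1 (0.22, adjusted p 0.0467) and without P12-ICHIKAWA (0.24, 0.0488). Of the 9 steps between neighbouring lines, 1 exceeded the least difference of 0.311 log2, that between MOLT3 and HPB-ALL.

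The other CXCR4 probe sets put KOPTK1 in another place. For 211919_s_at KOPTK1 had 951 under CompE against 2478.9 under DMSO, a change of −1.37, and for 209201_x_at 1280.4 against 2152.3, a change of −0.74, while 217028_at changed by 0.16 in the same RNA. Over all lines the changes were 0.10 (SE 0.151, limma adjusted p 0.753 over every probe set) for 211919_s_at and 0.15 (SE 0.117, adjusted p 0.522) for 209201_x_at, with 7 of 10 lines higher in each. MOLT3 had the largest change above 0 in all 3 probe sets. KOPTK1 was also the line with the ACTB ratio of 9.76, and the part of RNA integrity in the split was not tested. Without KOPTK1 the changes were 0.27 for 211919_s_at and 0.25 for 209201_x_at. With the ACTB ratio as a covariate their limma adjusted p was 0.0602 and 0.0865, for each the lowest of 22 alternatives. The largest changes over these alternatives were 0.47 for 211919_s_at and 0.39 for 209201_x_at.

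Because RBPJ is the DNA-binding partner of NOTCH1, its core letters TGGGAA were searched for on both strands of 300-base promoters from RefSeq (GRCh38.p14). CXCR4 has 3 annotated starts, and 2 of the 3 windows held 1 match each, shown in capitals within 30 bases of the minus strand. The second window lies inside the gene, at the start of a shorter transcript.
CXCR4 chr2:136118287-136118316: ggtcccctgggcTTCCCAagccgcgcacct
CXCR4 chr2:136116439-136116468: tttaggcaggcgTGGGAAaattaagttttt
Among 35116 promoters of the same length 24% held these letters. The windows of CCR9, S1PR1, KLF2, ITGA4 and ITGB7 held 0 matches, which says only that the letters are not in those windows.

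S1PR1, the exit receptor (gene 1901, chromosome 1, 101236899 to 101242313), was dim in HPB-ALL, with 3.41 under CompE and 1.0 under DMSO, and bright in RPMI8402, with 362 under CompE and 289 under DMSO. The medians were 76.7 under CompE and 55.1 under DMSO. It was higher under CompE in 9 of 10 lines, with CUTLL1 the exception at 43.1 under CompE and 54.6 under DMSO. The change of 0.28 (SE 0.119, interval 0.03 to 0.53) did not pass adjustment (limma adjusted p 0.154). The largest change was 0.60 in PF382, with 107 under CompE against 64.8 under DMSO, and the change was 0.04 in KOPTK1, with 283 against 276. No other of the 9 genes had as large a share of its spread between lines (97.8%). RPMI8402 and KOPTK1 stood above the other lines, and 3 of 9 steps exceeded the least difference of 0.39 log2: between KOPTK1 and PF382, between CUTLL1 and ALL-SIL, and between DND41 and HPB-ALL.

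KLF2 (gene 10365, chromosome 19, 16324826 to 16328685), a zinc finger factor that keeps T cells quiescent, had 53.9, 179 and 1739.6 (lowest, median and highest line) under CompE and 7.41, 145 and 437 under DMSO. The mean change of 0.57 (SE 0.219, interval 0.11 to 1.04) did not pass adjustment (limma adjusted p 0.114), and 6 of 10 lines were higher. It came largely from a few lines: KOPTK1 had 1739.6 under CompE against 315.8 under DMSO, DND41 53.9 against 7.41, and HPB-ALL 211 against 106. RPMI8402 had 346 under CompE against 216 under DMSO, and ALL-SIL had 352 against 437. The other lines, CCRF-CEM, CUTLL1, MOLT3, P12-ICHIKAWA and PF382, changed by −0.13 to 0.44. Without KOPTK1 the mean change was 0.37 (adjusted p 0.148). With the ACTB ratio beside the cell line in the model it was 0.04 (adjusted p 0.912). The order of lines had 0 of 9 steps above the least difference of 1.37 log2.

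KLF2 transcription is known to respond to the kinases MAP3K3, MAP2K5 and MAPK7 through MEF2 factors in endothelial cells. The MEF2 letters, CTA and TAG with any 4 bases between them, were therefore searched for on both strands. KLF2 held 1 match, shown in capitals in the 250 bases before the gene start (plus strand), 120 bases before it, while 2.73% of the 35116 promoters held one.
KLF2 chr19:16324576-16324825: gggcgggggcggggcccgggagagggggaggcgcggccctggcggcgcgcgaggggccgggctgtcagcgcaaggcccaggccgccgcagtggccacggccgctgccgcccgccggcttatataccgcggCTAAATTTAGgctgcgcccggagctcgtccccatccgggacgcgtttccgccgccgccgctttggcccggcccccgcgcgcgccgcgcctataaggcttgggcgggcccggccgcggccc
The promoters of CCR9, CXCR4, S1PR1, ITGA4 and ITGB7 held 0 such matches. CACCC, the core letters that KLF factors bind, is common, in 59.9% of promoters. The 300-base windows held it 2 times for S1PR1, for ITGA4 and in each CCR9 window, and 3 times for ITGB7. The 3 CXCR4 windows held it 2, 2 and 3 times, and that of KLF2 0 times. CACCC is shown in capitals for S1PR1, whose promoter KLF2 binds in mouse T cells, in 130 bases before the gene start (plus strand). For ITGB7 it is shown in 250 bases before the start (minus strand), where it stands 3 times.
S1PR1 chr1:101236769-101236898: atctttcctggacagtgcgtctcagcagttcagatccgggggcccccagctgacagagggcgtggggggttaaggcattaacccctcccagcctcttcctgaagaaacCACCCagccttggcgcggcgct
ITGB7 chr12:53207252-53207501: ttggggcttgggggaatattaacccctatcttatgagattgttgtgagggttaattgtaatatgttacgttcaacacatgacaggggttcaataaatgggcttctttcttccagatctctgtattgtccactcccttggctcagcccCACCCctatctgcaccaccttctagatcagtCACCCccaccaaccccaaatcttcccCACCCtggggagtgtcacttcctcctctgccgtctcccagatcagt
A match is a string of letters and no measured binding.

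KLF2 and S1PR1 were only weakly alike across lines. Their r was 0.429 (rho 0.261) over the 10 CompE arrays and 0.373 (rho 0.321) over the 10 DMSO arrays, and −0.03 and 0.491 without the 2 lines farthest from the median. Over the 10 changes r was −0.329 (rho −0.576), and −0.132 without the 2 farthest. In KOPTK1, the line with the ACTB ratio of 9.76 under CompE, KLF2 changed by 2.40 and S1PR1 by 0.04. Among the other 8 genes, each read by its brightest probe set, SELPLG (209879_at) had the changes most like those of KLF2. Over 10 lines r was 0.753 and rho 0.830, and r was 0.753 without the 2 lines farthest from the median. Their levels were less alike, with r of 0.419 over the CompE arrays and 0.134 over the DMSO arrays. The second SELPLG probe set, 209880_s_at, changed by 0.25 in KOPTK1, −0.50 in DND41 and −0.69 in HPB-ALL, with 5 of 10 lines higher. Its changes had r of −0.150 with those of 209879_at, so the likeness to KLF2 is that of 1 probe set. KOPTK1, DND41 and HPB-ALL, high in the changes of KLF2 and of 209879_at, were among the 4 lines with the largest changes of the ACTB ratio (1.56, 0.54 and 0.33). With that ratio as a covariate the mean change was 0.04 for KLF2 and 0.33 for SELPLG, against 0.57 and 0.51 without it; its part in the likeness of the 2 genes was not tested. Both genes were read from the same arrays, so these values describe the lines and carry no test.

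**Figure D2:**
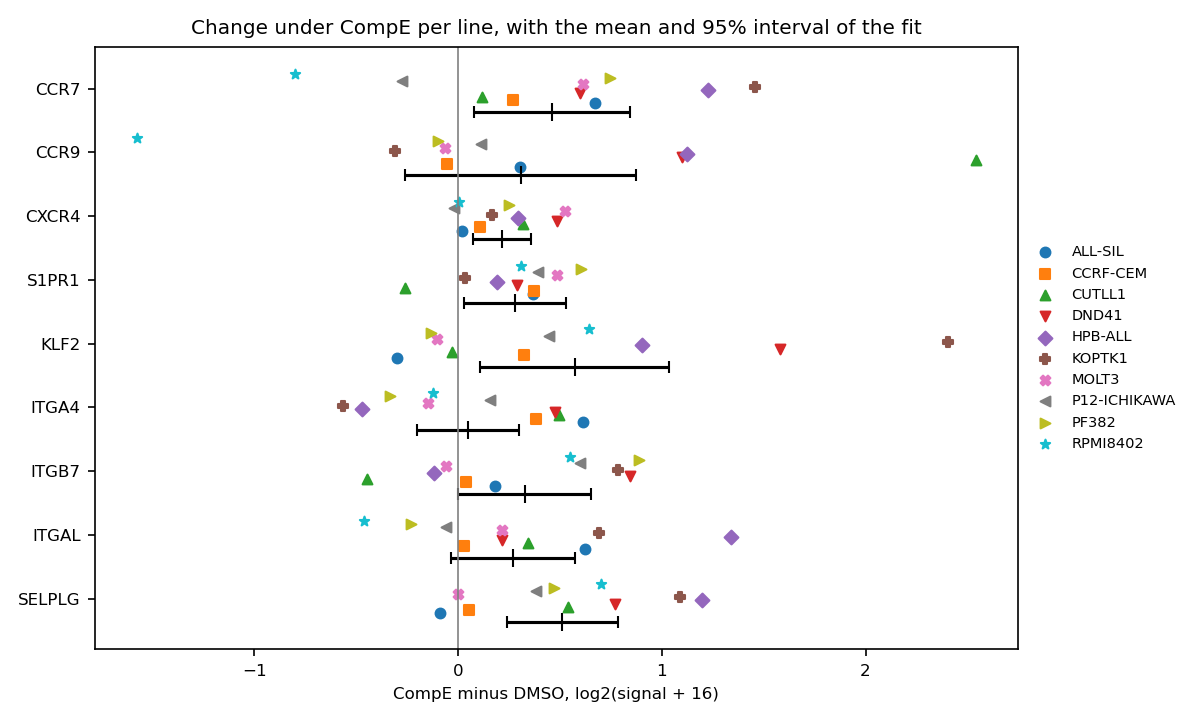
Change under CompE (CompE minus DMSO, log2(signal + 16)) of the 9 genes, 1 symbol a line, with a black bar for the mean and the 95% interval of the limma fit over 10 lines. All 9 means lie right of 0, only SELPLG passed adjustment, and the widest spreads are those of CCR9, from −1.58 in RPMI8402 to 2.54 in CUTLL1, and KLF2, from −0.30 in ALL-SIL to 2.40 in KOPTK1.

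The integrin chain ITGA4 (gene 3676, chromosome 2, 181457205 to 181538940) pairs with ITGB1 to bind VCAM1 and with ITGB7 to bind MADCAM1 of gut vessels. Its brightest probe set, 213416_at, had 352, 845 and 1497.3 (lowest, median and highest line) under CompE and 385, 904 and 1494 under DMSO. The change was 0.05 (SE 0.119, interval −0.20 to 0.30, limma adjusted p 0.836) with 5 of 10 lines higher. ALL-SIL had 1158.9 under CompE against 751.5 under DMSO and CUTLL1 1497.3 against 1056.3, whereas HPB-ALL had 888 against 1236.3 and KOPTK1 802 against 1192.8. Lines thus moved both ways, and the mean hid changes of −0.56 to 0.61. RPMI8402 was lowest in all 3 probe sets when both arrays were averaged.

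The other ITGA4 probe sets parted from 213416_at in several lines. In HPB-ALL 205885_s_at had 278 under CompE against 733 under DMSO, and in KOPTK1 157 against 382. In KOPTK1 205884_at had 63.3 under CompE against 421 under DMSO, a change of −2.46, where 213416_at changed by −0.56. MOLT3 changed by −0.15 for 213416_at, and by 0.25 for 205885_s_at and 0.94 for 205884_at, and RPMI8402 by −0.13 for 213416_at and 0.35 for 205885_s_at. These lines turned direction between probe sets, while the changes furthest below 0 were those of HPB-ALL and KOPTK1 in all 3 probe sets. The changes of the 10 lines agreed between 213416_at and the other probe sets with r of 0.840 for 205885_s_at and 0.763 for 205884_at. The mean changes were −0.08 for both (SE 0.178 and 0.25, limma adjusted p 0.849 and 0.9 over every probe set). Without KOPTK1 they were 0.05 and 0.19.

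ITGB7 (gene 3695, chromosome 12, 53191323 to 53207251), the chain that directs cells to gut, was dim, with 30.7, 70.9 and 104 (lowest, median and highest line) under CompE and 34.5, 45.3 and 82.8 under DMSO. The change of 0.33 (SE 0.154, interval 0.00 to 0.65) did not pass adjustment (limma adjusted p 0.196). Adding the ACTB ratio to the model gave 0.19 (adjusted p 0.56), adding the 10th percentile of signal 0.19 (0.698), and 64 in place of 16 as the constant in the log 0.21 (0.163). It was higher under CompE in 7 of 10 lines, with 91.5 against 42.0 in PF382, 74.5 against 34.5 in DND41 and 85.6 against 42.9 in KOPTK1. CUTLL1 went the other way, with 30.7 under CompE and 47.6 under DMSO. CompE took 15.7% of its sum of squares and the line 55.3%, so that ITGB7 was the gene with the least difference between lines. The levels of ITGA4 and ITGB7, partners in 1 heterodimer, had r of 0.0248 over the 10 DMSO arrays, and their changes r of −0.276.

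ITGAL (gene 3683, chromosome 16, 30472742 to 30523185), which with ITGB2 forms LFA-1, the receptor of ICAM proteins, was brightest in ALL-SIL, at 3133.8 under CompE and 2029.6 under DMSO. CUTLL1 followed at 796 and 625, and CCRF-CEM was lowest on average, at 61.0 and 59.3. The step between ALL-SIL and CUTLL1, that between CUTLL1 and MOLT3, and that between HPB-ALL and DND41 exceeded the least difference of 0.829 log2. The change under CompE was 0.27 (SE 0.144, interval −0.03 to 0.58, limma adjusted p 0.251) with 7 of 10 lines higher. HPB-ALL had the largest, with 363 under CompE against 134 under DMSO, and without this line the mean change was 0.15, and 0.15 again with the ACTB ratio in the model (adjusted p 0.618). The partner chains, chosen for this role after their values were seen, changed by 0.11 (ITGB2, adjusted p 0.642) and 0.07 (ITGB1, adjusted p 0.689) in the same fit.

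SELPLG (gene 6404, chromosome 12, 108621895 to 108633894) rose under CompE by its brighter probe set. The probe set 209879_at had 75.9, 346 and 1609.6 (lowest, median and highest line) under CompE and 48.1, 255 and 747 under DMSO, and 9 of 10 lines were higher. The change was 0.51 (SE 0.129, interval 0.24 to 0.78, limma adjusted p 0.0274), and an exact sign-flip permutation test over the 10 pairs gave an unadjusted two-sided p of 0.00977. HPB-ALL had 178 under CompE against 68.7 under DMSO, KOPTK1 1609.6 against 746.8, DND41 539 against 309.8 and RPMI8402 88.4 against 48.1. MOLT3 had 142 under both treatments, and ALL-SIL was the only line with a change below 0, at 687 under CompE and 732 under DMSO. The step between ALL-SIL and P12-ICHIKAWA and that between DND41 and CCRF-CEM exceeded the least difference of 0.707 log2, with KOPTK1 and ALL-SIL the highest lines and PF382 the lowest.

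The second SELPLG probe set did not show this rise. For 209880_s_at the signals were 14.4, 117 and 262 under CompE and 7.98, 113 and 272 under DMSO, and the change was −0.09 (SE 0.143, limma adjusted p 0.783 over every probe set) with 5 of 10 lines higher. HPB-ALL had 26.3 under CompE against 52.1 under DMSO by this probe set and 178 against 68.7 by the other. The levels of the 2 probe sets over the 10 DMSO arrays had r of 0.885, while their changes had r of −0.150. The call was lost when the probe sets of a gene were averaged (change 0.21, adjusted p 0.19), with the ACTB ratio as a covariate (0.33, adjusted p 0.167), with no adjustment for line, and without any 1 of CUTLL1 (adjusted p 0.0565), DND41 (0.0669), HPB-ALL (0.073) and RPMI8402 (0.0668). It was made in 14 of 24 alternatives, 6 of the 10 that left out a line among them.

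**Figure D3:**
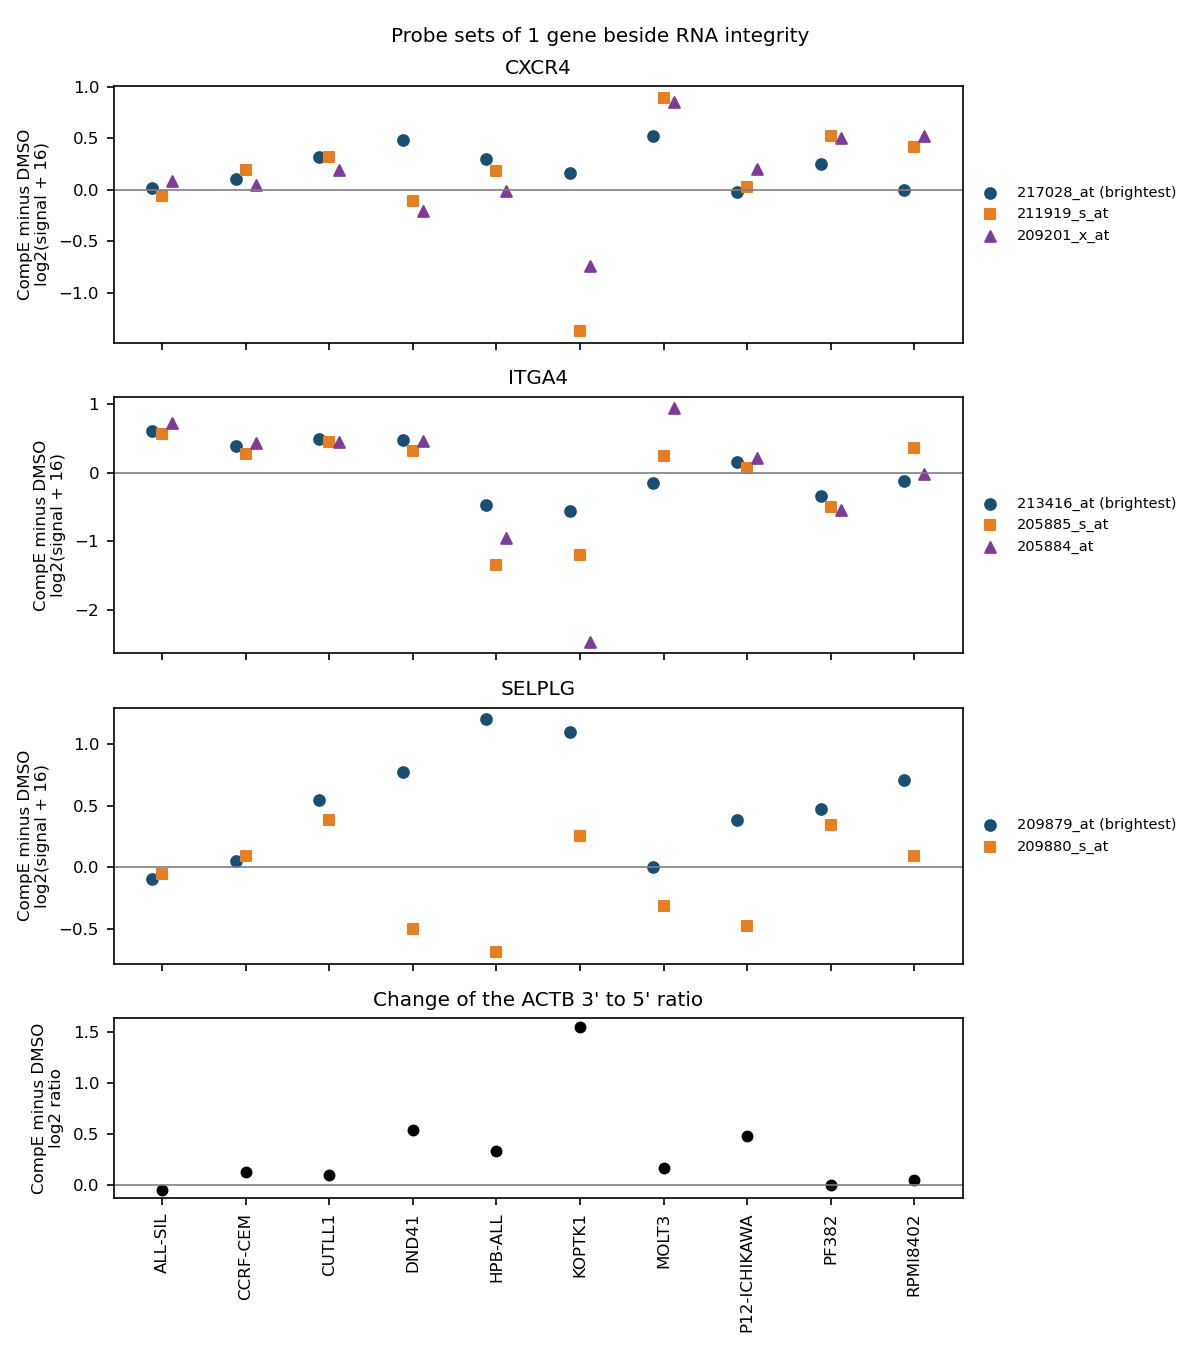
Change under CompE (CompE minus DMSO, log2(signal + 16)) in each of 10 lines for every probe set of CXCR4, ITGA4 and SELPLG, above the log2 change of the 3′ to 5′ ACTB signal ratio. Probe sets of 1 gene parted most in KOPTK1 for CXCR4 and ITGA4, the line with the ACTB change of 1.56, and in HPB-ALL for SELPLG, with 1.20 for 209879_at and −0.69 for 209880_s_at.

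Around the receptors, other chemokine receptors and some receptors listed with them were close to background. Of 22 on the list 20 had a probe set of their own, and 0 reached the filter of 34.8 on the mean over all arrays. Single lines stood out. CCR2, a receptor of CCL2, had 2 probe sets, whose highest signals were 369 under CompE and 53.0 under DMSO, both in ALL-SIL. These values may come from different probe sets, so they give no change of 1 probe set. CCRL2, with 1 probe set, had 228 under CompE against 152 under DMSO in P12-ICHIKAWA. Of 6 ligands above the filter 0 were called in either direction, with a median change of 0.19 beside 0.04 over all genes. MADCAM1, the gut ligand of ITGA4 with ITGB7, changed by 0.31 (limma adjusted p 0.264), and ICAM3, a ligand of LFA-1 on leukocytes, by 0.22 (adjusted p 0.271).

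Of 7 genes of the S1P pathway above the filter 0 were called, with a median change of 0.08. CD69, which pulls S1PR1 off the cell surface, had 13.9, 382 and 1085.7 (lowest, median and highest line) under CompE and 11.6, 405 and 1400.2 under DMSO. Its change was 0.16 (SE 0.198, limma adjusted p 0.65) with 5 of 10 lines higher. Leaving out 1 line gave 0.006 (HPB-ALL) to 0.31 (KOPTK1). SGPL1, the lyase that breaks down S1P, changed by 0.16 (adjusted p 0.211) with 9 of 10 lines higher, and APOM, its carrier in blood, by −0.08 (adjusted p 0.766). Of 8 other integrin chains 0 were called, with a median change of 0.11; ITGAV, a chain that binds vitronectin, changed by 0.40 (adjusted p 0.087, 8 of 10 lines higher).

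Among genes that act below the receptors, of 23 genes of integrin activation and motility 4 rose and 0 fell, beside 3.96% of all genes tested that rose and 3.3% that fell. Their median change was 0.12 beside 0.04 over all genes. RHOH, a blood-cell GTPase of T-cell signalling, had 1285.9, 1481.7 and 3579.5 (lowest, median and highest line) under CompE against 658, 899 and 2585 under DMSO, and rose by 0.77 in 10 of 10 lines (SE 0.115, limma adjusted p 0.00448). RAC2, a GTPase of actin movement in blood cells, rose by 0.37 in 10 of 10 lines (SE 0.0701, adjusted p 0.011). PTK2B, a focal adhesion kinase, rose by 0.46 in 10 of 10 lines (SE 0.0881, adjusted p 0.0114). WAS, which drives actin branching, rose by 0.39 with 8 of 10 lines higher (SE 0.0917, adjusted p 0.0223), a call lost when arrays were centred (adjusted p 0.0522). Other probe sets changed by 0.10 for RAC2, by 0.05 for PTK2B and, in the opposite direction, by −0.14 for WAS. With the probe sets of a gene averaged the limma calls of RAC2 (adjusted p 0.0578), PTK2B (0.171) and WAS (0.433) were lost. With the arrays' 10th percentile of signal as a covariate 0 of 23 were called, as were 0 of all 7547 genes (1043 at an unadjusted p under 0.05).

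Of 22 genes of chemokine receptor signalling, 1 rose and 0 fell, beside 3.96% and 3.3% of all genes tested. The median change was 0.09. Without KOPTK1 2 rose and 1 fell, where the calls over all genes went from 548 to 1042. Without P12-ICHIKAWA 0 rose and 1 fell. GNAQ, a G-protein alpha chain, rose by 0.28 with 9 of 10 lines higher (SE 0.0814, limma adjusted p 0.0479), and the call was made in 4 of 24 alternatives. RGS10, which ends G-protein signals, changed by −0.27 (adjusted p 0.0978) with 1 of 10 lines higher. Of 15 genes of selectins and of PSGL-1 glycosylation 0 were called, with a median of 0.07. GCNT1, the branching enzyme that PSGL-1 needs to bind P-selectin, had 30.9, 62.3 and 532 (lowest, median and highest line) under CompE and 3.11, 29.4 and 403 under DMSO, a change of 0.51 (SE 0.156, adjusted p 0.056) with 9 of 10 lines higher. CHST2, a sulfotransferase of selectin ligands, changed by −0.40 (adjusted p 0.0779) with 1 of 10 lines higher.

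Of 19 KLF family genes and KLF2 regulators, 1 rose and 0 fell, beside 3.96% and 3.3% of all genes tested. The median change was 0.16. MEF2A, 1 of the MEF2 factors, had 239, 756 and 1083.7 (lowest, median and highest line) under CompE and 185, 439 and 869 under DMSO. It rose by 0.57 with 9 of 10 lines higher (SE 0.117, limma adjusted p 0.014), and its other probe sets changed by 0.17 and 0.31. MEF2D of the same family, added after its value was seen, changed by −0.28 (adjusted p 0.368) with 3 of 10 lines higher. The part of MEF2 factors in the KLF2 change was not tested. MAP3K3, a kinase above MEF2, changed by 0.47 with 10 of 10 lines higher (SE 0.138, adjusted p 0.0512). The kinases MAP2K5 and MAPK7 were added after their values were seen. MAP2K5 changed by 0.17 (adjusted p 0.342, 6 of 10 lines higher) and MAPK7 by 0.16 (adjusted p 0.431, 7 of 10 lines higher). FOXO1, which acts on KLF2 in mouse T cells, changed by 0.46 with 9 of 10 lines higher (SE 0.146, adjusted p 0.0651). For scale, the 11 genes of a NOTCH response list had 7 that fell and 1 that rose, with a median change of −0.70.

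**Figure D4:**
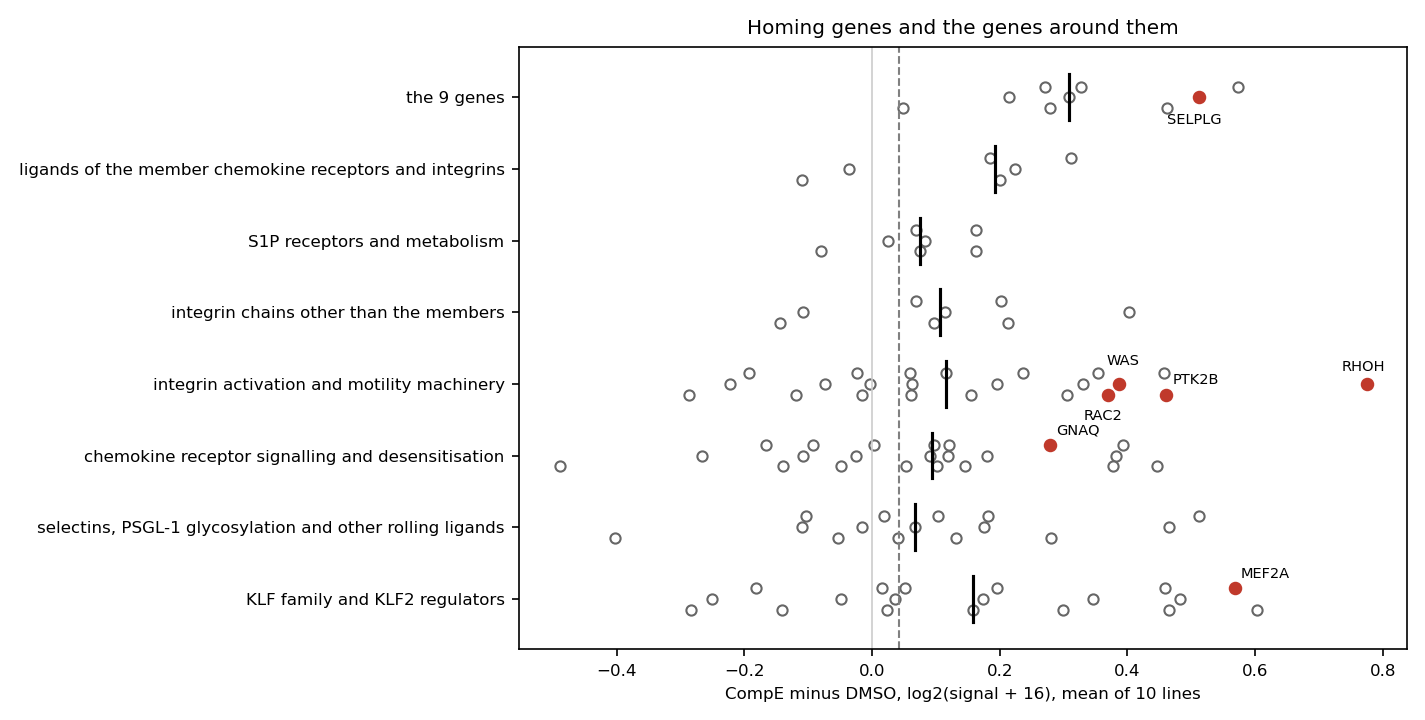
Mean change under CompE over 10 lines (CompE minus DMSO, log2(signal + 16)) of the 9 genes and of the tested genes of 7 lists around them, with filled points for genes with a limma adjusted p under 0.05, black bars for list medians, a solid grey line at 0 and a dashed line at the median of all 7547 genes. The called genes are SELPLG, RHOH, PTK2B, WAS, RAC2, GNAQ and MEF2A, all higher under CompE, and the median of the 9 genes is 0.31 beside 0.04 for all genes.

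The genes whose levels across lines were most like each of the 9 were taken as the 2 with the highest r over the 10 DMSO arrays among 7538 others. For CCR9 they were COTL1, an actin-binding protein (r 0.778 over the CompE arrays and 0.963 over the DMSO arrays), and SWAP70 (r 0.675 and 0.958). Over the DMSO arrays, S1PR1 was most like CD164 (r 0.938) and POLG2 (r 0.880), and SELPLG like SPEF1 (r 0.950) and CD96, a T-cell surface receptor (r 0.886). ITGA4 was most like USP3 (r 0.947) and DDX24 (r 0.913), and CXCR4 most like BNIP2 (r 0.951) and ZFAND5 (r 0.939). KLF2 was most like PCLAF (r 0.884) and DUT (r 0.883), CCR7 like ZNF557 (r 0.901) and MED18 (r 0.890), ITGB7 like DYNLT1 (r 0.899) and TUBA4A (r 0.894), and ITGAL like UBBP2 (r 0.955) and CDK13 (r 0.911). For UBBP2, r was −0.03 over the CompE arrays. The highest of 7538 values of r over 10 lines is high in any case, so these names are a description.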

How the data were processed

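Total RNA of 10 T-ALL lines, each with 1 CompE and 1 DMSO array, was measured on Affymetrix 3′ arrays. The deposited values are linear intensities (MAS5 signals, per the submitters' processing notes). The MAS5 version and settings are not given in the sources; the mean of each array without its outer 2% was 249.8 to 250, so arrays share 1 scale. Of 22277 probe sets, 62 controls were left out; the platform's annotation gave 1 gene for 19064, several for 1043 and did not list 2108. A gene was read from its brightest probe set with 1 gene, and genes under the 40th percentile (signal 34.8) were left out, which left 7547 of 11963. Signals were tested as log2(signal + 16) with limma 3.58.1 in R 4.3.3, treatment and cell line being fixed terms (the line as block), with eBayes' trend and Benjamini-Hochberg adjustment at 0.05, two-sided; a fit of all 22215 probe sets had no filter. Arrays were paired by the line in their labels, and CompE arrays correlated best with their own line (r 0.917 to 0.984) in 10 of 10 cases. Sign-flip tests used all 1024 patterns, with a smallest p of 0.00195. On simulated data of 7547 genes with 200 changed for CompE against DMSO, 17.3% of changes of 0.3 log2 were recovered, 54.9% of 0.5 and 94.2% of 1, with 5.63% of calls false and 0 calls with no effect. The simulated noise was independent between genes and held no array-wide shift. These shares therefore hold for such data and do not measure the false calls among the real arrays. The number of arrays limits the precision.

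The members and gene lists were chosen with earlier results of these data known. All members are named, with up to 4 genes of each list by smallest adjusted p and the 2 genes most like each member. Alternatives were other pseudocounts, scalings, blocks, covariates, filters, tests and probe set rules, and leaving out each line. The RefSeq promoter table (GRCh38.p14) matched 6 of 9 genes; CCR7, ITGAL and SELPLG were not used there. One planned item is not reported here. For 3 lines, P12-ICHIKAWA, MOLT3 and CCRF-CEM, the medium in the DMSO label differs from that in the CompE label, and an alternative left them out.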

Additional observations from a re-analysis of the deposited data

Results flagged for a closer look

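Each of 42 sets of 10 values (a probe set's CompE levels, DMSO levels or changes) was tested for 1 value far from the others; 3 were found, and chance gives about 5% of sets. The change of CXCR4 by 211919_s_at in KOPTK1 was −1.37, with the nearest line at −0.10. The KLF2 level under CompE in KOPTK1 was 10.78 on the log2(signal + 16) scale, with the nearest line at 8.52. The ITGA4 level by 213416_at under CompE in RPMI8402 was 8.52, with the nearest line at 9.51.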

How the results depend on the processing

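The number of genes called (548) was 0 with no replicate block (365 at an unadjusted p under 0.05), 0 with the arrays' 10th percentile of signal as a covariate (1043 unadjusted) and 0 by sign-flip tests (1834 unadjusted). It was 317 when the ACTB ratio was added to the model and 303 without the 3 lines whose label names another medium. Without 1 line it ranged from 182 (RPMI8402) to 1042 (KOPTK1), with 183 when HPB-ALL was left out, 214 for DND41, 321 for CUTLL1, 354 for MOLT3 and 365 for PF382. The number of probe sets called (380) was 0 with no replicate block (1230 unadjusted), 0 with the 10th percentile (1919 unadjusted), 0 by sign-flip tests (3914 unadjusted), 0 without the intensity trend, 99 with a random block, 173 with the ACTB ratio, 109 without the 3 lines and 604 with the 40th percentile filter. Without 1 line it ranged from 53 (HPB-ALL) to 1098 (KOPTK1), with 59 when DND41 was left out, 68 for ALL-SIL and also 68 for RPMI8402, 94 for CUTLL1, 113 for MOLT3, 133 for PF382 and 195 for CCRF-CEM. Line differences were called for 5291 to 6502 genes in 16 alternatives. With no replicate block the SELPLG change had a limma adjusted p of 0.9996, with a random block 0.194 and with the 10th percentile 0.273. By sign-flip tests its adjusted p was 0.0912. The smallest sign-flip p, 0.00195, passes adjustment only where many genes reach it. The 0.0912 and the counts of 0 by sign-flip tests reflect this limit as well as the data. ITGA4 by 213416_at changed direction with centred arrays (−0.0229) and without ALL-SIL (−0.0140) or CUTLL1 (−0.000997), with a range of −0.0140 to 0.117 without 1 line, and the mean of its probe sets gave −0.0345. ITGA4 205885_s_at changed direction with the ACTB ratio (0.209) and the 10th percentile (0.0253), with a range of −0.149 to 0.0647 without 1 line, above 0 without HPB-ALL (0.0647) or KOPTK1 (0.0480). ITGA4 205884_at did so with the ACTB ratio (0.467), with a range of −0.188 to 0.190, above 0 without HPB-ALL (0.0221) or KOPTK1 (0.190). CXCR4 211919_s_at did so with the 10th percentile (−0.00979) and without the 3 lines (−0.0120), SELPLG 209880_s_at with the 10th percentile (0.0443), ICAM3 (−0.0254) and APOM (0.0698) with the ACTB ratio, and RGS10 with the mean of its probe sets (0.0441). The cause was not tested. RHOH was called in 21 of 24 alternatives, MEF2A in 21, PTK2B in 20, RAC2 in 19 and WAS in 15.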
